A study of Mus musculus with 13 samples.

Results

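Zscan4c, Zscan4d, Zscan4f, Tcstv1, Tcstv3, Zfp352 and Tdpoz4 were examined as genes of the two-cell-like state in mouse embryonic stem cells. They were chosen by symbol and are 7 of the 24470 genes in the count table. The cells were E14, an embryonic stem cell line of 129/Ola mouse background grown in serum with LIF, with no genotype or treatment that differed between groups. RNA and accessible chromatin were profiled from the same small cell inputs in 2 experiments run on different days. Experiment 1 gave mRNA libraries from 10000 and 20000 cells, and experiment 2 gave mRNA libraries from 5000, 10000 and 20000 cells. The same 5 inputs gave low-input ATAC libraries, and Omni-ATAC, a bulk ATAC protocol used as a benchmark, gave 3 more libraries from 5000, 10000 and 50000 cells.

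The two-cell-like state is a rare and reversible state of cultured embryonic stem cells, in which genes of zygotic genome activation are transcribed again. The transcription factor Dux and the retroviral promoters of MERVL drive many of them, and Zscan4 genes, which encode zinc finger proteins that act on telomeres and genome stability, are its common reporters. Because a culture holds few such cells, a bulk library reads their genes at low levels, and fewer cells in the state cannot be told apart from less RNA per cell.

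Library totals ran from 13727122 to 20426252 counts. A count of 0 therefore allowed up to 0.147 to 0.219 CPM (each count scaled to its library total), taking 3 counts as the floor; intervals are 95% Wilson intervals, and both cover counting error only. Embryonic stem cell markers were high in every library, with 10 of 10 at a mean of at least 10 CPM and a summed level of 3591 to 3681 CPM in experiment 1 and 3526 to 3602 CPM in experiment 2. The 8 fibroblast markers summed to 32.1 to 35.5 CPM in experiment 1 and to 9.01 to 10.5 CPM in experiment 2, so they were lower on the same day as the Zscan4 genes described below; 2 of the 8, Col3a1 and Lum, were at 0 in every library, and 1 had a mean of at least 10 CPM. Primitive endoderm markers summed to 4.68 to 6.05 against 1.01 to 1.96 CPM, trophoblast markers to 29.4 to 30.3 against 23.9 to 25.7 CPM, neural markers to 4.23 to 5.62 against 11.1 to 14.4 CPM, and mesendoderm markers to 0.364 to 1.27 against 0.656 to 3.42 CPM. Of the 4 trophoblast markers, 1 had a mean of at least 10 CPM. None of the 5 primitive endoderm, 3 neural and 3 mesendoderm markers did. The ranges of the fibroblast, primitive endoderm, trophoblast and neural markers did not overlap between experiments, while those of the embryonic stem cell and mesendoderm markers did. Such separation was common among the 12523 single genes tested below. All 3 libraries of experiment 2 lay under both of experiment 1 for 23.9% of them, and over both for 17.7%. The part of these markers in the results below was not tested. The experiment also stands for the day and the state of the culture, which cannot be told apart. Between experiments, p-values measure only the spread between libraries of 1 day, which also differ in cell number. Between cell numbers, without a block, they measure the spread between libraries of different days.

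Zscan4c, Zscan4d and Zscan4f lie within 1 cluster on chromosome 7, and their promoters are shown first to describe how alike the copies are there. Most of each window lies before the start and transcript sequences were not compared. How far mRNA reads can be assigned to 1 copy was therefore not tested. The sequences are the RefSeq windows of GRCm38.p6 from 250 bases before to 50 bases after each annotated start, read 5′ to 3′ along the gene, and 5 of the 7 genes matched such a window. The reference is C57BL/6J and the cells are 129/Ola. In the Zscan4c window, chr7:11005495-11005794 on the plus strand, the capitals mark the letters TATAAA. In the Zscan4d window, chr7:11166099-11166398 on the minus strand, and the Zscan4f window, chr7:11397665-11397964 on the plus strand, the capitals mark the bases that differ from Zscan4c in the aligned stretch.
Zscan4c: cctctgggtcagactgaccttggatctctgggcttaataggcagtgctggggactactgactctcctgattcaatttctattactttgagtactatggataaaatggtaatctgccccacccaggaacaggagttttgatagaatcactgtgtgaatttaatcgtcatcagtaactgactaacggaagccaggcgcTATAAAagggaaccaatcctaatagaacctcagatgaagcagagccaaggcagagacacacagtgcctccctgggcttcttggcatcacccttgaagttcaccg
Zscan4d: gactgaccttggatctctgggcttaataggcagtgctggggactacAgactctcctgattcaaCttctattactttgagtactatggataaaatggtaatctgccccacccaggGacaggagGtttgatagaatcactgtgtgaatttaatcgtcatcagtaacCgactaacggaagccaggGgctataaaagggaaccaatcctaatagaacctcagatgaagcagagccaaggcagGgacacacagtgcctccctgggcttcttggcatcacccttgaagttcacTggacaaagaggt
Zscan4f: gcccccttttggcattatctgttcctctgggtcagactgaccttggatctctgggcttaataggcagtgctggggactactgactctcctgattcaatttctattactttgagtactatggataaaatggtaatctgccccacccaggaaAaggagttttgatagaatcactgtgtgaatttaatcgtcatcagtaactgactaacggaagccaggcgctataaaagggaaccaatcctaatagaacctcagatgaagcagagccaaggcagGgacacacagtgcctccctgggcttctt

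Zscan4c and Zscan4f were identical at 275 of 277 aligned bases (99.3%), with an unbroken identical run of 127 bases. The differences, counted from 1 at the 5′ end of the Zscan4c window with its base first, were C128A and A250G. Zscan4c and Zscan4d were identical at 281 of 289 aligned bases (97.2%), with a longest identical run of 55 bases. Those promoters differ at 8 aligned bases, the capitals above. Zscan4d and Zscan4f were identical at 259 of 266 bases (97.4%). TATAAA, searched on both strands, was found 54 bases before the start of Zscan4c, 65 before that of Zscan4d and 31 before that of Zscan4f, so the same letters sit at different distances from the annotated starts. Of 32851 RefSeq promoters of the same length, 13.6% hold those letters. TGCACAC, a motif known for Zscan4 proteins, was in none of the 5 windows on either strand and in 4.40% of all promoters. Exact copies of the windows' 50-base words occurred in the promoter of another gene for 59.8% of the words of Zscan4c, 31.5% of those of Zscan4d, 70.9% of those of Zscan4f, 32.3% of those of Tdpoz4 and 0% of those of Zfp352; 18.1% of all promoters held any such word.

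Zscan4c (gene ID 245109, chr7:11005745-11010547 in mm10, plus strand) had 88 counts in the library from 10000 cells and 86 in the library from 20000 cells of experiment 1. In experiment 2 it had 5 counts from 5000 cells, 18 from 10000 and 3 from 20000. These were 6.41 and 5.75 CPM in experiment 1, against 0.298, 1.16 and 0.147 CPM in experiment 2. All 3 libraries of experiment 2 were below both of experiment 1, and the intervals did not touch: the lower limits in experiment 1 were 5.20 and 4.66 CPM, and the highest upper limit in experiment 2 was 1.83 CPM. Within experiment 1 the intervals overlapped, and in experiment 2 so did those of 5000 and 20000 cells.

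Zscan4d (gene ID 545913, chr7:11161643-11166148, minus strand) did not separate the experiments in the same way. It had 31 counts (2.26 CPM) and 38 counts (2.54 CPM) from 10000 and 20000 cells in experiment 1. In experiment 2 it had 38 counts (2.27 CPM) from 5000 cells, 6 (0.387 CPM) from 10000 and 0 from 20000. The library from 5000 cells lay between those of experiment 1, while the other 2 libraries of its own day were low.

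Zscan4f (gene ID 665902, chr7:11397915-11402318, plus strand) was carried mostly by 1 library. It had 46 counts (3.35 CPM) from 10000 cells and 6 counts (0.401 CPM) from 20000 cells of experiment 1, and 0 counts in all 3 libraries of experiment 2. The intervals of the libraries of experiment 1, 2.51 to 4.47 and 0.184 to 0.876 CPM, did not overlap, although both come from 1 day.

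**Figure D1:**
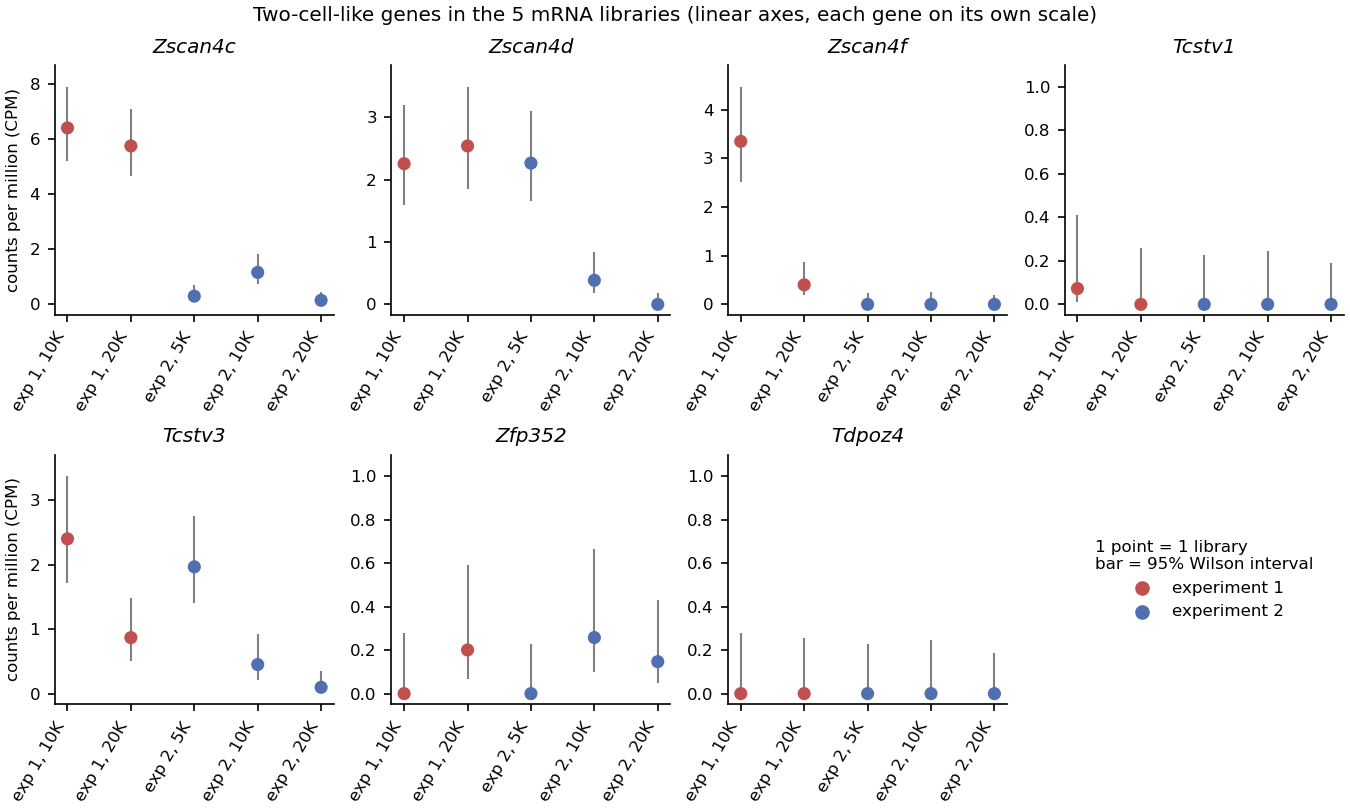
CPM (linear axes, each gene on its own scale) of the 7 genes in the 5 mRNA libraries; points are single libraries, coloured by experiment, and bars are 95% Wilson intervals. Zscan4c is at 5.75 and 6.41 CPM in experiment 1 and at most 1.16 CPM in experiment 2, whereas Zscan4d and Tcstv3 from 5000 cells of experiment 2 lie at 2.27 and 1.97 CPM, near or within the levels of experiment 1.

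Summed over Zscan4c, Zscan4d and Zscan4f, a sum that depends less on how reads are split among them, the level was 165 counts (12.0 CPM) from 10000 and 130 counts (8.70 CPM) from 20000 cells in experiment 1. In experiment 2 it was 43 counts (2.57 CPM) from 5000, 24 (1.55 CPM) from 10000 and 3 (0.147 CPM) from 20000 cells. Both libraries of experiment 1 were above all 3 of experiment 2. This sum leaves out Zscan4a and Zscan4b of the same cluster. With them the counts were 269 and 217 in experiment 1 from 10000 and 20000 cells. In experiment 2 they were 43, 42 and 7 from 5000, 10000 and 20000 cells, so the first 2 of these were nearly equal.

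The split of the counts among Zscan4c, Zscan4d and Zscan4f differed between libraries. Zscan4c took 53.3% (45.7 to 60.8) and 66.2% (57.7 to 73.7) in experiment 1 from 10000 and 20000 cells, and 75.0% (55.1 to 88.0) from 10000 cells of experiment 2. From 5000 cells it took 11.6% (5.07 to 24.5) of 43 counts, where Zscan4d took 88.4% (75.5 to 94.9). The Zscan4d share in the libraries from 10000 cells and from 20000 cells of experiment 1 was 18.8% (13.6 to 25.4) and 29.2% (22.1 to 37.6), so the library from 5000 cells stood apart in which copy was counted. Zscan4f took 27.9% (21.6 to 35.2) and 4.62% (2.13 to 9.70) in experiment 1. The treatment of reads that match several copies is not given in the sources used here, so these shares describe the deposited rows, and each copy's own level is uncertain.

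**Figure D2:**
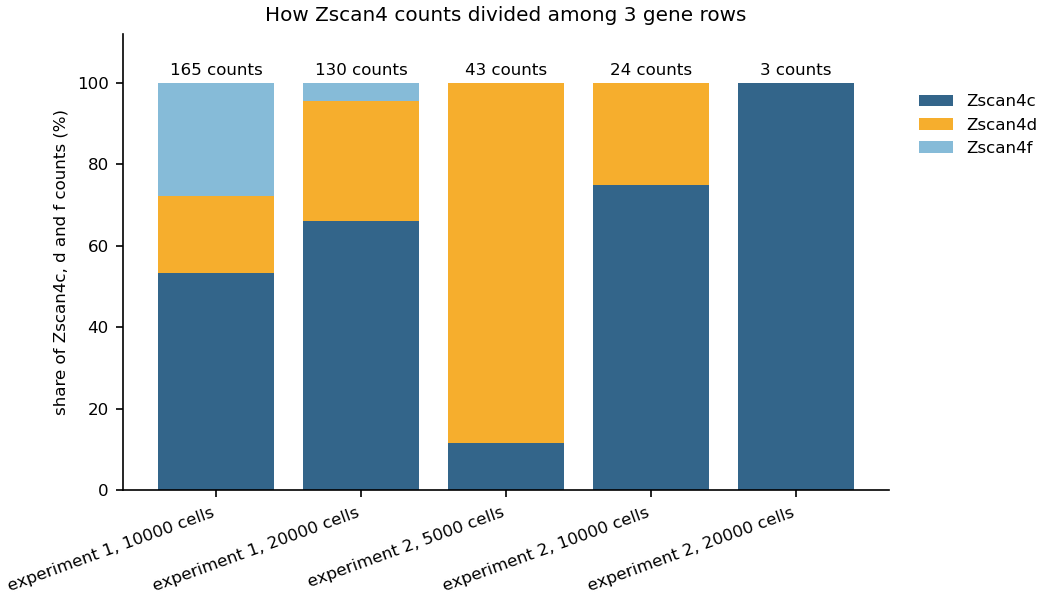
Share (percent, linear axis from 0) of the Zscan4c, Zscan4d and Zscan4f counts that each gene took in each mRNA library, with the number of counts above each bar. Zscan4c takes the largest share in every library except that from 5000 cells, where Zscan4d takes 88.4% of 43 counts.

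Tcstv1 and Tcstv3, which belong to a small gene family on chromosome 13 transcribed in the two-cell embryo, differed in how many counts they had. Tcstv3 (gene ID 236219, chr13:120316862-120318261, plus strand) had 33 counts (2.40 CPM) and 13 counts (0.870 CPM) from 10000 and 20000 cells of experiment 1. In experiment 2 it had 33 (1.97 CPM), 7 (0.451 CPM) and 2 counts (0.0979 CPM) from 5000, 10000 and 20000 cells. The groups overlapped, because the library from 5000 cells lay between those of experiment 1, as it did for Zscan4d. Tcstv1 (gene ID 54382, chr13:119893387-119894785, minus strand) had 1 count from 10000 cells of experiment 1 and 0 in the other 4 libraries.

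Zfp352 and Tdpoz4 were at or near the floor. Zfp352 (gene ID 236537, chr4:90218820-90225687, plus strand), a zinc finger gene of early embryos, had 0 and 3 counts in experiment 1 from 10000 and 20000 cells, and 0, 4 and 3 counts in experiment 2 from 5000, 10000 and 20000 cells. Its highest level was 0.258 CPM, with an interval of 0.100 to 0.663 CPM, and no difference was detectable at this depth. Tdpoz4 (gene ID 399675, chr3:93796398-93797510, plus strand), which encodes a TRAF and POZ domain protein, had 0 counts in every library, which allows up to 0.147 to 0.219 CPM. Transcript lengths were not used, so counts and shares set side by side for different genes describe how reads were assigned to rows and give no order of expression between genes.

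The Zfp352 promoter is shown because, unlike those of Zscan4, it shares no 50-base word with another gene's promoter, and because of an internal repeat. It spans chr4:90218570-90218869 on the plus strand of GRCm38.p6, and the capitals mark GACAACACAC, searched on both strands.
Zfp352: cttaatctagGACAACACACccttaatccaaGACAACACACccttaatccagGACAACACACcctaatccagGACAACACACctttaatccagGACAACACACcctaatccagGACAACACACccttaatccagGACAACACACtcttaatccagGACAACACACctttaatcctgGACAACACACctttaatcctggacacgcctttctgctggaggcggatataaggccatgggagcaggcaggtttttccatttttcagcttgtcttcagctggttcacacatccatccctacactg

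GACAACACAC occurred 9 times in that window, and 17 of 32851 promoters (0.0517%) held it at all. Of all promoters, 1.62% held any 10-base word as often as that. The match is a description of the reference sequence, and no ATAC peak lay there.

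Experiment 2 was compared with experiment 1 in the 4 libraries from 10000 and 20000 cells, which both days share, with edgeR's quasi-likelihood test and Benjamini-Hochberg adjustment over 12523 genes. Zscan4c fell by 3.28 ± 0.60 (SE) on the log2 scale (n = 2 libraries a group, edgeR adjusted p = 0.000575), and Zscan4d fell by 3.70 ± 1.01 (edgeR adjusted p = 0.0161). Tcstv3 had a log2 fold change of -2.59 ± 1.01 and did not pass (edgeR adjusted p = 0.0966, unadjusted p = 0.0172). So 2 of 7 genes passed, of which 3 were tested, and both were lower. Of all genes tested, 12.5% passed in either direction and 6.76% were lower. The other 4 (Zscan4f, Tcstv1, Zfp352 and Tdpoz4) did not pass the filter on low counts. A gene near that filter is tested only where 1 group is high, and the 3 tested genes entered mainly through their counts in experiment 1. The direction of their calls is thus no separate result, and no share over the tested genes is given.

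Zscan4f, at 0 in both libraries of experiment 2 compared here, was at least 11.0-fold lower than its mean of 1.88 CPM in experiment 1, taking the mean floor of 0.170 CPM of those libraries. Without the filter on low counts it was called by edgeR (adjusted p = 0.000205); all its counts are from experiment 1. That mean rests on the library from 10000 cells, with 46 counts against 6, and without that library Zscan4f was not tested. Without 10000 or 20000 cells of experiment 2 its edgeR adjusted p was 0.0548 and 0.0696.

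Zscan4c remained called with each library left out in turn, with log2 fold changes from -5.29 to -2.37 and edgeR adjusted p from 2.12e-06 to 0.0128. Zscan4d remained called only without the library from 10000 cells of experiment 2; without 10000 or 20000 cells of experiment 1, or 20000 cells of experiment 2, the edgeR adjusted p was 0.0624, 0.0930 and 0.173. When the library from 5000 cells was added to experiment 2, Zscan4c fell by 3.50 (edgeR adjusted p = 0.000449), while Zscan4d had -1.36 ± 0.96 (edgeR adjusted p = 0.420) and Tcstv3 -0.88 (edgeR adjusted p = 0.639). The fall of Zscan4d thus rested on the inputs of 10000 and 20000 cells. Over all 5 libraries, Zscan4c and Zscan4f were lower in every library of experiment 2 than in both of experiment 1, an order that 23.9% of the genes tested also had.

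**Figure D3:**
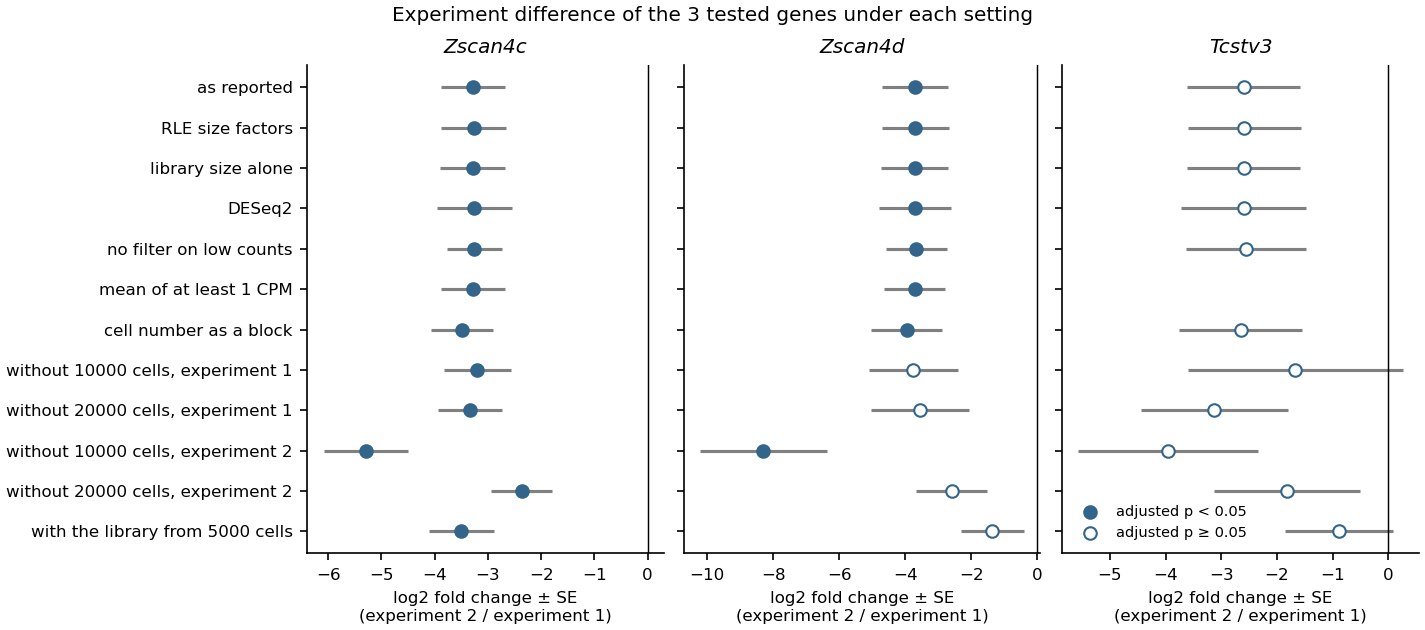
Log2 fold change ± SE of experiment 2 over experiment 1 for the 3 genes tested, as reported and under each other setting; filled points have an adjusted p under 0.05. Zscan4c is filled throughout (-5.29 to -2.37), Zscan4d loses the call under 4 of the settings shown, and Tcstv3 is open in each setting that tested it.

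Libraries from 20000 cells were compared with those from 10000 cells in the same 4 libraries, to ask whether the amount of input changed these genes. Zscan4c had a log2 fold change of -0.38 ± 1.36 (SE), Zscan4d of -0.08 ± 1.66 and Tcstv3 of -1.59 ± 1.28, each with an edgeR adjusted p of 0.999. No gene of 12523 passed (0.0%) with edgeR, against 101 genes at an unadjusted p under 0.05, and DESeq2 also called 0, with 60 at an unadjusted p under 0.05. With the experiment, which pairs the libraries, as a block, edgeR called 4 genes, none of them among the 7, with 566 at an unadjusted p under 0.05. In that fit the log2 fold changes were -1.0 ± 0.56 for Zscan4c, -0.93 for Zscan4d and -1.71 for Tcstv3. Zscan4c and Tcstv3 were lower from 20000 than from 10000 cells in both experiments, and Zscan4d in experiment 2 alone. The errors are wide, so the comparison does not show that input leaves the genes unchanged. Within experiment 2, the library from 5000 cells had the highest Zscan4d and Tcstv3 and the library from 20000 cells the lowest Zscan4c, Zscan4d and Tcstv3; with 1 library per input that order has no replicate check.

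Other genes of the two-cell-like state were taken from a list of 53 symbols, of which 31 had a row, 8 of those were at 0 in every library and 15, those included, never exceeded 3 counts. Of the 6 that were tested between experiments, 3 fell and 2 rose, beside 6.76% of all genes tested that fell and 5.75% that rose. Genes as low as Zscan4a and Eif1ad8 enter the test mainly through their counts in experiment 1, so these counts over the tested genes are a description only. Zscan4a, another gene of the same cluster (chr7:10794241-10799065), had 100 and 84 counts in experiment 1 and 0, 18 and 4 in experiment 2 from 5000, 10000 and 20000 cells. Zscan4a fell by 3.30 ± 0.58 on the log2 scale (edgeR adjusted p = 0.000309). Its counts ran close to those of Zscan4c in each library but that from 5000 cells, where Zscan4c had 5 and Zscan4a had 0.

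Eif1ad8, a copy of a translation initiation factor gene family, had 27 and 43 counts in experiment 1 and 17, 2 and 1 in experiment 2. Eif1ad8 fell by 4.71 ± 1.01 (edgeR adjusted p = 0.00252), but with the library from 5000 cells added it had -2.53 (edgeR adjusted p = 0.0959); without 20000 cells of experiment 1 or of experiment 2 its edgeR adjusted p was 0.0830 and 0.0578. Ddit4l, an inhibitor of mTOR signalling, had 45 and 117 counts in experiment 1 and 30, 18 and 33 in experiment 2. Ddit4l fell by 1.99 ± 0.49 (edgeR adjusted p = 0.00813), and by 1.21 without 20000 cells of experiment 1 (edgeR adjusted p = 0.240); without 10000 cells of experiment 2 its edgeR adjusted p was 0.0964. Usp17lb, a deubiquitinase gene named after its values were seen, had 8 and 9 counts in experiment 1 and 0 in all 3 libraries of experiment 2, and was at least 3.48-fold lower. In the same family, Usp17la had 4 and 14 counts in experiment 1 and 0, 9 and 0 in experiment 2, so its libraries overlapped. Usp17le had 18 and 2 counts in experiment 1 and 0 in experiment 2, and Usp17lc and Usp17ld had no counts.

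The 2 genes of that list that rose were Calcoco2 and Patl2. Calcoco2, an autophagy receptor, was at 22.9 and 23.8 CPM in experiment 1 and at 37.9, 37.3 and 34.7 CPM in experiment 2, a rise of 0.62 ± 0.17 on the log2 scale (edgeR adjusted p = 0.0158). Patl2, an RNA-binding protein of oocytes, was at 10.5 and 10.8 CPM in experiment 1 and at 14.6, 15.9 and 19.3 CPM in experiment 2, a rise of 0.73 ± 0.22 (edgeR adjusted p = 0.0301). Leaving out 10000 cells of experiment 1, or 10000 or 20000 cells of experiment 2, ended both calls, with edgeR adjusted p from 0.0517 to 0.121 for Calcoco2 and from 0.0619 to 0.250 for Patl2, which DESeq2 also did not call (adjusted p = 0.0617). Gm20767 had 22 and 55 counts in experiment 1 and 36, 20 and 9 in experiment 2 (log2 fold change -1.63 ± 0.72, edgeR adjusted p = 0.148). AF067061 had at most 16 counts in a library and was not tested.

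Of 7 known activators and early factors, 5 were tested. Dppa3, a maternal factor that protects DNA methylation after fertilisation and is expressed in naive embryonic stem cells, had 13 and 17 counts in experiment 1 and 249, 115 and 235 in experiment 2. Dppa3 rose by 3.17 ± 0.40 on the log2 scale (edgeR adjusted p = 5.85e-06), the opposite direction to Zscan4c. The other 4 tested, which include Dppa2 and Dppa4, factors that act upstream of Dux, had log2 fold changes from -1.80 to 0.16, and none of them passed.

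All 24 known repressors were tested; 3 rose, 1 fell and the median log2 fold change was 0.03, against 0.001 over all genes tested, of which 5.75% rose and 6.76% fell (12.5% in all). The list itself was not tested, and the genes called are given as single genes. Smchd1, a chromatin protein that represses Dux, was at 8.30 and 9.43 CPM in experiment 1 and at 18.0, 18.4 and 17.2 CPM in experiment 2, a rise of 1.00 ± 0.23 (edgeR adjusted p = 0.00407; 0.0540 without 10000 cells of experiment 2). Setdb1, a histone H3 lysine 9 methyltransferase, rose by 0.44 ± 0.14 (edgeR adjusted p = 0.0406), and its libraries overlapped once the 5000-cell input was included, at 51.2 and 59.6 against 56.9, 78.0 and 72.5 CPM. Zfp42, the REX1 gene and a regulator of retroviral elements, rose by 0.38 ± 0.11 (edgeR adjusted p = 0.0282). Pcgf6, a subunit of a variant Polycomb complex, fell by 0.46 ± 0.15 (edgeR adjusted p = 0.0398), from 96.6 and 72.9 CPM to 69.7, 57.8 and 65.1 CPM. With library size alone as the scaling, Setdb1 and Pcgf6 did not pass (edgeR adjusted p = 0.0508 and 0.0526), and the same 2 genes did not pass without 10000 cells of experiment 1 or without 10000 or 20000 cells of experiment 2 (edgeR adjusted p from 0.0818 to 0.536), or with the library from 5000 cells added (edgeR adjusted p = 0.117 for Setdb1 and 0.118 for Pcgf6). DESeq2 did not call Pcgf6 either (adjusted p = 0.0628). Zfp42 passed with none of the 4 libraries left out (edgeR adjusted p from 0.0628 to 0.171). No gene of the 3 lists passed between 20000 and 10000 cells.

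**Figure D4:**
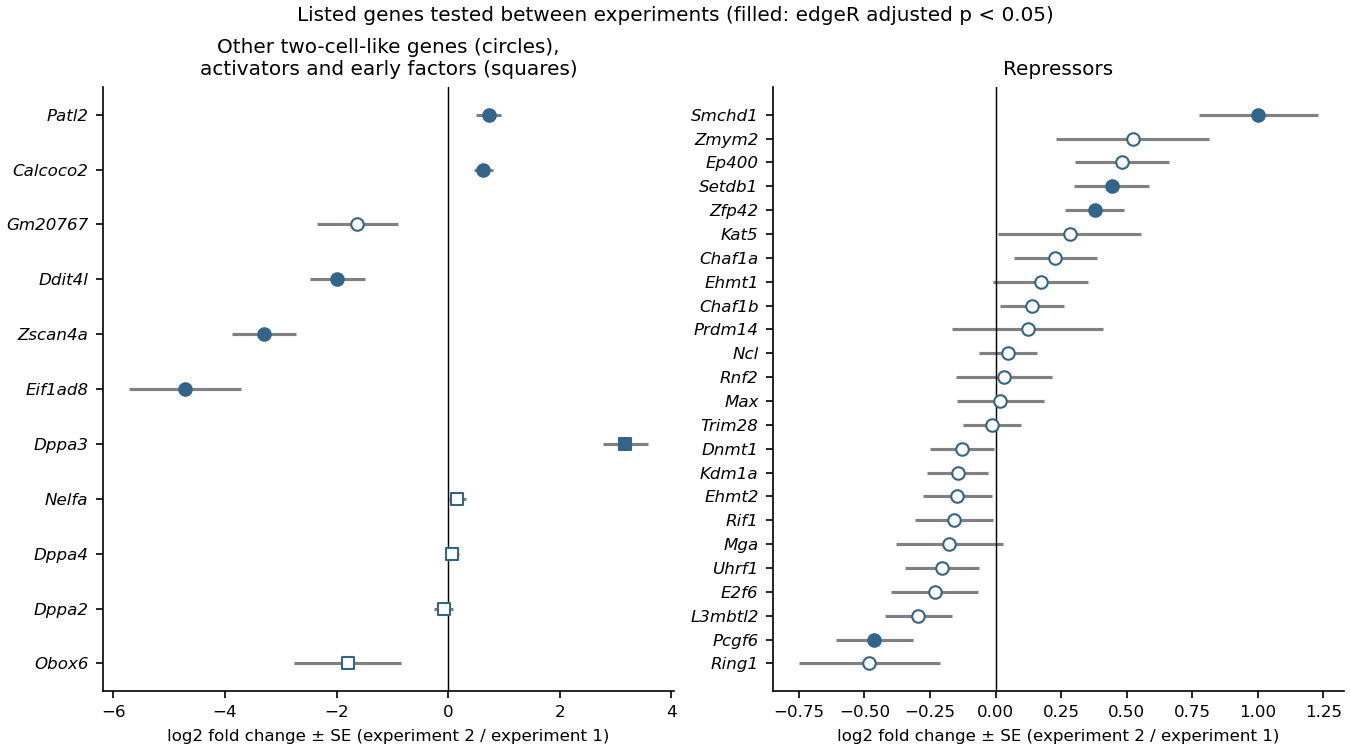
Log2 fold change ± SE of experiment 2 over experiment 1 for the tested genes of the 3 lists; filled symbols have an edgeR adjusted p under 0.05. On the left, Zscan4a, Eif1ad8 and Ddit4l lie below 0 and Dppa3 lies at 3.17; on the right, the repressors lie around 0 with Smchd1 at 1.00.

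The genes whose pattern was most like the summed Zscan4c, Zscan4d and Zscan4f level were found among the 11509 genes averaging 1 CPM or more, by the root mean square difference of centred log2(CPM + 0.5) over the 5 mRNA libraries. Sytl1 was nearest, at a difference of 0.457, against a median of 1.56 over all genes. Its level was 8.52 and 5.49 CPM in experiment 1 and 1.37, 1.42 and 0.441 CPM in experiment 2. Eif1ad15 (0.530), 4930591A17Rik (0.537), Zfp365 (0.575) and Gm3143 (0.602) followed. Eif1ad15, of the same family as Eif1ad8, was at 3.13 and 2.07 CPM in experiment 1 and at 0.656, 0.387 and 0 CPM in experiment 2.

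None of the 7 genes had an ATAC peak within 1000 bp of its start in any of the 8 lists, or in the unified list. Of all genes, 61.6% had such a peak in at least 1 of the 8 lists. By list, the share was 31.1% for 10000 cells of experiment 1 and for 5000 cells of experiment 2, 40.5% for 10000 cells of experiment 2, 37.4% and 50.3% for 20000 cells of experiments 1 and 2, and 18.6%, 41.5% and 61.1% for Omni-ATAC from 5000, 10000 and 50000 cells. Of genes averaging under 3 CPM, where all 7 fall, the share in any list was 41.3%. The lists differ with the number of cells, and they hold no height, score or depth, so a gene without a peak is a gene without a listed interval. Intervals in repeated sequence depend on which reads were kept, and that was not tested.

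The nearest peaks of Zscan4c and Zscan4f lay at nearly the same distance upstream in 4 of the lists. Zscan4c had a peak 13116 to 13152 bp upstream in 4 lists, within chr7:10992521-10992629, inside the annotated RNA gene Gm7789. Those lists were 10000 cells of both experiments, 20000 cells of experiment 2 and Omni-ATAC from 50000 cells. Zscan4f had a peak 13078 to 13160 bp upstream in 5 lists (the same 4 and 20000 cells of experiment 1), within chr7:11384721-11384837, inside the pseudogene Gm45598. These intervals were 9 to 109 bp wide for Zscan4c and 9 to 117 bp wide for Zscan4f. Zscan4d had no peak within 20000 bp in any list, and its nearest was 73857 bp away. Across the whole cluster from Zscan4a to Zscan4f (chr7:10794241-11402318), the lists held 0 to 3 peaks each, or 0 to 4.93 per Mb, against 4.47 to 40.9 per Mb on chromosome 7.

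The closest peak to any of the 7 starts, taking each gene's nearest list, was that of Tcstv3. Tcstv3 had a 9 bp peak 3041 to 3047 bp upstream in 2 lists, 20000 cells of experiment 2 and Omni-ATAC from 50000 cells. Tcstv1 had a peak of 9 to 169 bp, 7625 to 7726 bp downstream, in 3 lists. The other lists had none within 20000 bp, and the median distance over the 8 lists was 89852 bp for Tcstv3 and 57337 bp for Tcstv1. For Zscan4f it was 13119 bp, but for Zscan4c and Zscan4d it was 196064 and 196059 bp. The surrounding Tcstv region (chr13:119827961-120318261) held 1 to 11 peaks a list, or 2.04 to 22.4 per Mb, against 3.33 to 35.1 per Mb on chromosome 13. Zfp352 had a peak 15063 to 15123 bp upstream in 2 lists, 9 bp wide in each. Tdpoz4, which had no counts, had a peak 17012 to 17118 bp downstream in 6 lists, between it and Tdpoz3. Among the low-input ATAC lists, the peak upstream of Zscan4c was present for the inputs where Zscan4c had 6.41 CPM (10000 cells of experiment 1), 1.16 CPM and 0.147 CPM (10000 and 20000 cells of experiment 2). It was absent for those where Zscan4c had 5.75 CPM (20000 cells of experiment 1) and 0.298 CPM (5000 cells of experiment 2), so presence in a list did not follow the order of the counts.

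**Figure D5:**
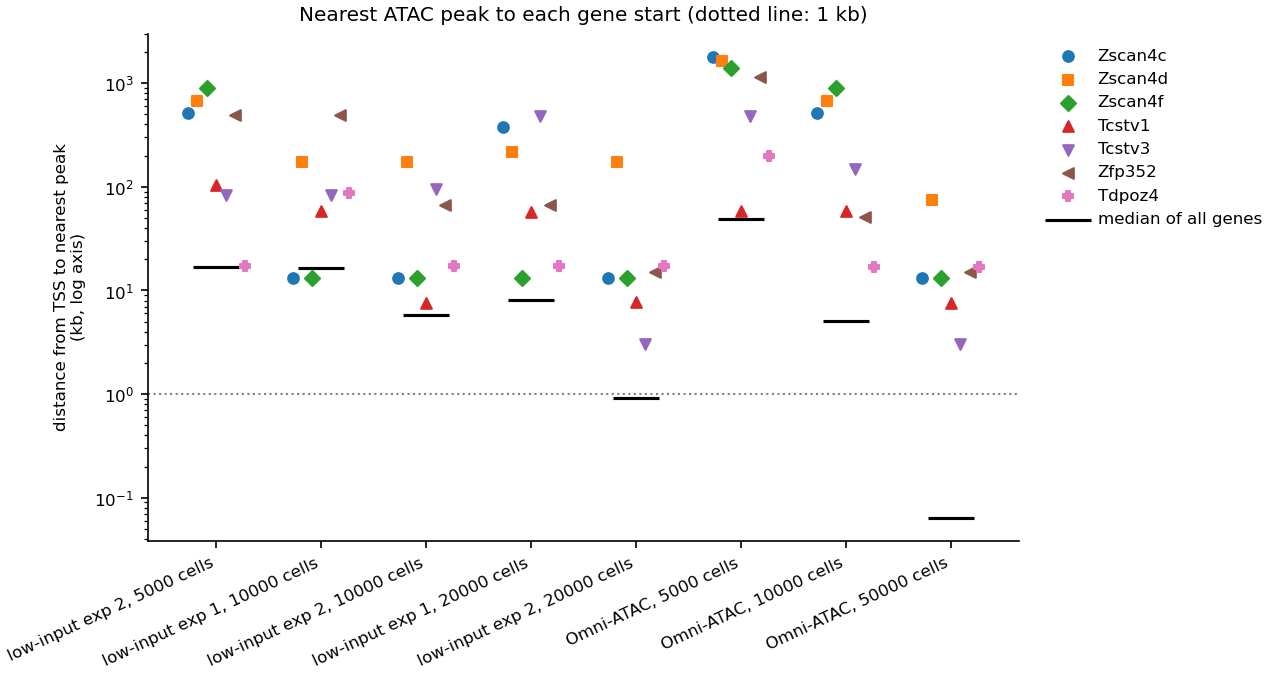
Distance in kb (log axis) from the start of each of the 7 genes to the nearest ATAC peak in each of the 8 lists, with the median of all genes as a bar and 1 kb as a dotted line. Every point lies above 1 kb, and Zscan4c and Zscan4f sit together near 13 kb in 4 of the lists.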

How the data were processed

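The authors deposited a table of whole-number counts, 1 row a gene with its mm10 position, covering 5 mRNA libraries. ATAC peaks were deposited by the authors as intervals with no score, 1 list for each of 8 libraries and 1 unified list. Per the submitters' processing notes, which give no role or order, the tools were cutadapt, Bowtie2 2.1.0, SAMtools 1.3.1, Picard, bedtools 2.24.0, MACS2 2.1.1, STAR 2.5, featureCounts and Subread 1.5.0-p1. Strand use, the treatment of reads matching several places and the annotation version are not given in the sources used here. Genes that overlap or have near-identical copies are therefore uncertain.

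Groups came from the sample titles. The experiment number marks a shared day per the labels, and deviations of the libraries of 1 experiment correlated across 11512 genes (r = 0.544), so it pairs libraries across cell numbers. The smallest chi-square per gene between any 2 libraries was 10.1, so none was a duplicate. Columns of no sample numbered 0. Here, edgeR 4.0.16 (R 4.3.3; TMM, filterByExpr, quasi-likelihood, adjusted p threshold 0.05) was the test, with SE taken as the absolute log2 fold change over the square root of F, and it was tested on simulated data. Alternatives were DESeq2 1.42.0, other scalings and filters, blocks, the added library from 5000 cells, and each library left out. Peaks were matched to annotated starts within 1000 bp, or 500 and 2500 bp.

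The 7 genes and the lists were chosen with earlier results of these data known. Named genes are all 7; of the other two-cell-like list, those called and the 8 with the highest mean CPM, of which 1 is not reported here; of the activators and repressors, those called, with the rest as a range; and the 5 most alike in pattern. Usp17lb with the other listed genes of its family, and Dppa2 and Dppa4 as examples within the range, were named in addition, after their values were seen.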

Additional observations from a re-analysis of the deposited data

Results flagged for a closer look

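Zscan4d moved in opposite directions with cell number in the 2 experiments: from 10000 to 20000 cells it was 0.284 CPM higher in experiment 1 and changed by -0.387 CPM in experiment 2. Each change is between 1 library and 1 library, and the difference between the experiments was not tested. In experiment 1 the intervals of both libraries overlapped, and in experiment 2 the counts were 6 and 0.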

How the results depend on the processing

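Between experiments, the 2 calls held under other scalings, DESeq2, a minimum mean of 1 CPM and cell number as a block; without the filter on low counts Zscan4f made them 3, which is within 1.5 times, and with the library from 5000 cells 1 gene was called. Leaving out 1 library gave 1 to 2 calls; without 20000 cells of experiment 1 Zscan4d was lost, and the 2 include Zscan4f, which entered the test only through its 46 counts in the remaining library of that day. The count over all genes was 803 to 1817 when 1 library was left out, against 1567. A left-out library leaves a group with 1 library, assumed to vary like the others, and the lowest values below rest on libraries at or near 0, where a fitted fold change depends on the prior count. For 20000 against 10000 cells, leaving out 1 library moved the log2 fold change of Zscan4c from -4.61 to 1.31, of Zscan4d from -7.45 to 1.66 and of Tcstv3 from -3.76 to 0.05; these fits have no block, so cell number is partly mixed with the experiment in them. The positive values came without 10000 cells of experiment 1 (1.31, 1.66 and 0.045) and, for Zscan4c and Zscan4d, without 20000 cells of experiment 2 (0.60 and 0.94). With the replicate block, 0 of the 7 genes passed between cell numbers (Zscan4c -1.0, edgeR adjusted p = 0.998), as without it; over all genes the pairing gave 4 calls and no filter gave 2, against 0. The count of genes with a peak at the start remained 0 at 500 and 2500 bp, over gene bodies, and for peaks of at least 50 bp. Depth limits Tcstv1, Zfp352 and Tdpoz4, which had at most 4 counts in a library.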
